A study of Mus musculus with 6 samples.

Results

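The enzymes that start, branch, extend and cap mucin-type sugar chains were examined in dysplastic stem cells of mouse organoids. Members were taken by gene symbol: all rows named Galnt, B3gnt, Gcnt, St3gal, St6gal, St6galnac or Fut followed by a digit, together with C1galt1 and C1galt1c1. This gave 55 of the 23420 gene rows, among them the pseudogene Fut4-ps1. Of the 55, 31 had a mean of at least 1 CPM (read counts scaled to a common total of gene reads in each library) over the 6 libraries, 11 had fewer reads and 13 had none in any library.

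The study compared 2 populations of dysplastic stem cells (DSCs) isolated by FACS, labelled DP-DSCs and TP-DSCs, both from the mouse epithelial organoids named Meta4. The labels do not spell out DP and TP; the usual reading is double-positive and triple-positive cells. No allele, treatment, time or animal age was given in the labels, and both groups share the 1 organoid line. Polyadenylated RNA of 3 libraries a group was sequenced. The labels call the samples independent but name no cultures behind them; p-values therefore reflect only how these libraries spread, which may be technical. The library names carry a number, 3840 for replicate 1 of each group and 4140 for replicates 2 and 3 of each; its meaning is not given in the sources used here. Gene reads ranged from 17015581 to 32671039 per library. Genes with at least 1 read numbered 12504 to 14434 in DP-DSC libraries and 10571 to 10982 in TP-DSC libraries. All 6 epithelial markers looked for had reads in both groups, with summed levels of 7730 to 10099 CPM per library. The summed level of 7 fibroblast markers did not exceed 3.19 CPM and that of 4 endothelial markers 4.995 CPM, with Col1a2, Col3a1, Dcn, Lum, Pdgfrb and Pecam1 at 0. Of the immune markers, Cd3e and C1qa were at 0 and the summed level was 5.14 to 47.5 CPM in DP-DSCs and 0 to 17.3 CPM in TP-DSCs, nearly all of it Cd68.

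Mucin-type O-glycosylation begins in the Golgi when a GALNT enzyme places N-acetylgalactosamine (GalNAc) on a serine or threonine. C1GALT1 adds galactose to build the core 1 structure, with the chaperone encoded by C1galt1c1 (Cosmc) needed to fold it. GCNT enzymes branch the chain with N-acetylglucosamine (GlcNAc), B3GNT enzymes extend it, and sialyl- and fucosyltransferases cap it. In the stomach and intestine these chains coat the secreted and membrane mucins and carry blood group and Lewis antigens, and their shortening and sialylation are well known in dysplasia and carcinoma. Several members also act on N-linked chains or glycolipids.

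None of the 32 members that passed the filter on low counts was called different between TP-DSCs and DP-DSCs by edgeR's quasi-likelihood test at an adjusted p of 0.05. The same held for all genes: 0 of 11925 tested genes (0.0%) were called. At an unadjusted p under 0.05, 0 members were higher in TP-DSCs, against 1.43% of all tested genes, and 1 member was lower, against 4.67% of all tested genes. That member, St6galnac6, passed the filter on low counts through its DP-DSC reads alone. Its place in this count and among the lower members without overlap was therefore in part set by the filter. DESeq2 called 0 of the 32 members and 0.78% of all tested genes. Over the 32 members the median log2 fold change (TP-DSCs over DP-DSCs) was -0.15, with 9 above and 23 below 0, and over all tested genes it was -0.02, with 5752 above and 6173 below. Libraries of the groups did not overlap for 1 member higher in TP-DSCs (Galnt3; 3.87% of all tested genes) and 2 lower (St3gal5 and St6galnac6; 8.56% of all tested genes). These shares of the members, 3.12% and 6.25%, lay near or below the background. Bounds on the difference varied between members, and not by level alone. For Galnt4, the highest by mean CPM, the approximate 95% interval ran from 0.418-fold to 2.16-fold. For 9 members (Galnt1, Galnt2, Galnt3, Galnt7, Gcnt2, St3gal4, B3gnt2, B3gnt3 and C1galt1) the approximate 95% interval of the difference lay within 2-fold in either direction. For 12 others, among them Galnt6, St3gal2 and Fut1, it reached 4-fold or more. These intervals come from the fit without the library number. With the number as a replicate block, 12 members lay within 2-fold, the same 9 with Galnt4, Gcnt3 and Fut8, and 11 reached 4-fold; Galnt6 and St6galnac2 were no longer among the latter and St3gal6 was.

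**Figure D1:**
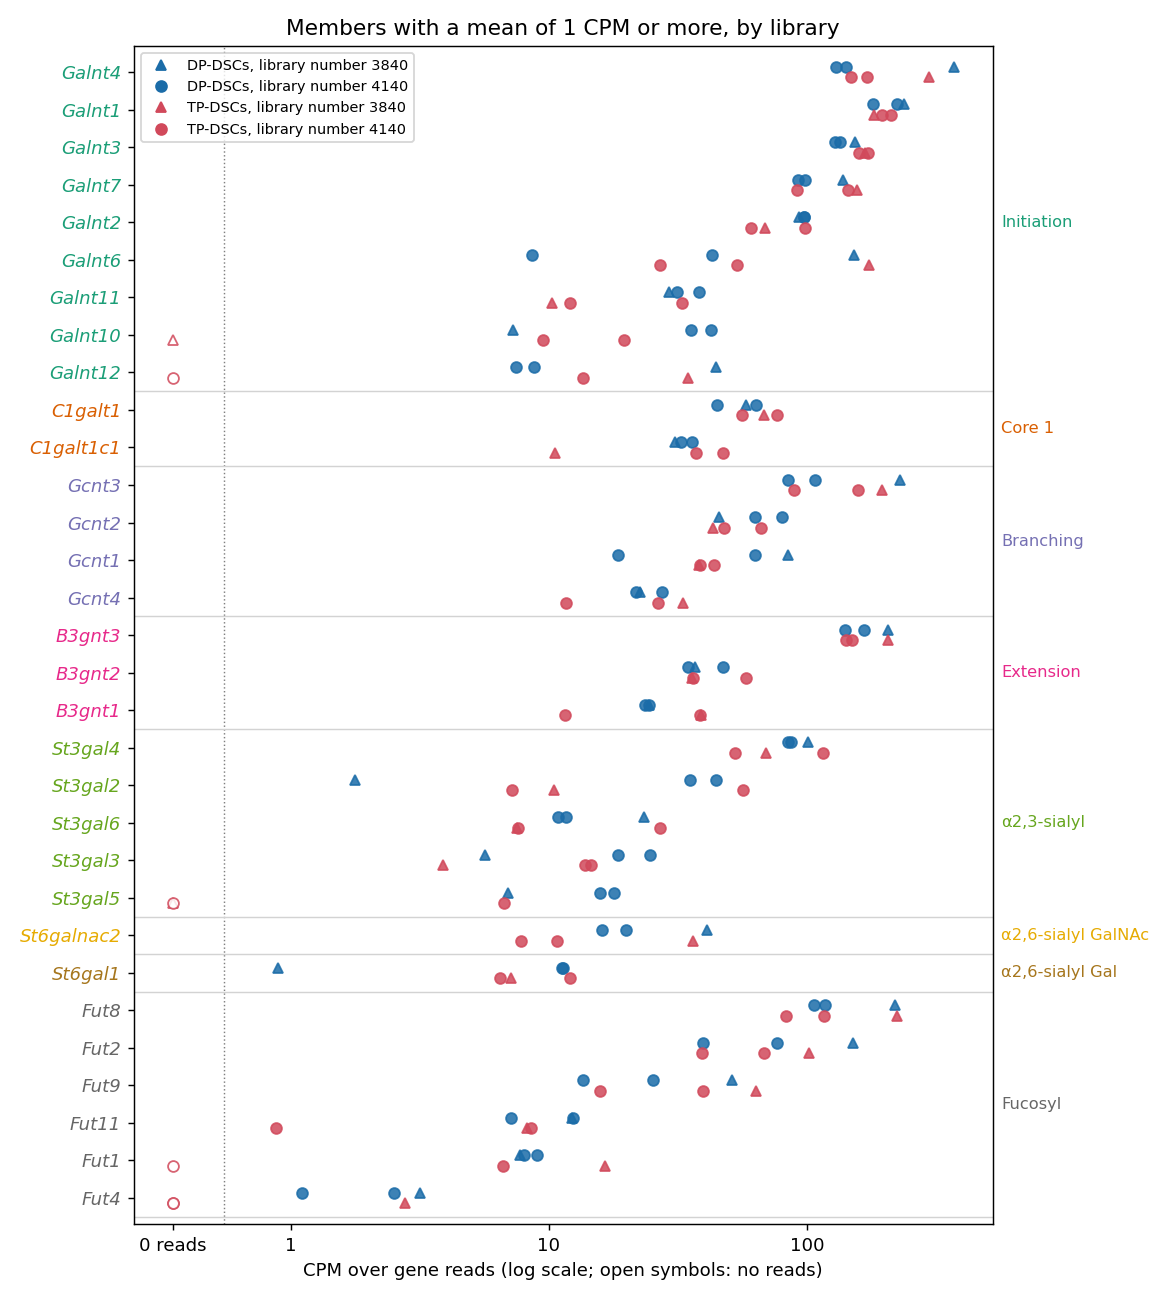
Level of each of the 31 members with a mean of at least 1 CPM in each library, on a log axis of CPM over gene reads, ordered by enzyme class and mean level. Blue marks DP-DSCs and red TP-DSCs; triangles mark library number 3840, circles 4140, and open symbols at the left 0 reads. Triangles of both colours lie to the right of all circles for Galnt4, Galnt6, Galnt12, Gcnt3, B3gnt3, St6galnac2, Fut8, Fut2, Fut9 and Fut4. They lie to the left of all circles for Galnt10, Gcnt2, St3gal3 and C1galt1c1, while blue and red symbols intermix for nearly every gene.

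The initiating enzymes made up the largest class, with 16 members, of which 9 reached 1 CPM. Their summed level was 920 ± 266 CPM in DP-DSCs against 902 ± 162 CPM in TP-DSCs (SD, n = 3 each). Per kilobase of transcript, Galnt1 was first among them at 49.7 RPKM (CPM per kilobase of transcript, mean of the 6 libraries), followed by Galnt4 at 41.1 and Galnt3 at 39.3. Their library ranges of 43.7 to 57.8, 25.5 to 72.6 and 33.1 to 44.2 RPKM overlapped, so these 3 could not be ranked beyond their spread. Galnt1, a broadly expressed initiator, stood at 237, 180 and 222 CPM in DP-DSCs replicates 1, 2 and 3 and at 182, 194 and 211 CPM in TP-DSCs replicates 1, 2 and 3. The groups overlapped, and the highest library was 1.32 times the lowest, the narrowest spread of any member.

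Galnt4, whose product follows up on sites near an existing GalNAc, stood at 369, 130 and 141 CPM in DP-DSCs and at 297, 170 and 148 CPM in TP-DSCs. The highest value in each group was that of replicate 1, the library numbered 3840. Galnt4 is a single-exon gene that lies inside the Poc1b locus, and how reads shared with Poc1b transcripts were counted is not given in the sources used here. In GENCODE M21 its exon overlapped no exon of another gene's protein-coding transcripts. Galnt2 and B3gnt2 did have such an overlap on the same strand, with Gm20388 and Gm28048. Galnt3, an epithelial initiator, stood at 154, 129 and 135 CPM in DP-DSCs and at 168, 172 and 159 CPM in TP-DSCs. Every TP-DSC value exceeded every DP-DSC value, with means of 166 ± 6.71 and 139 ± 13.1 CPM (SD, n = 3 each). The log2 fold change was 0.24 ± 0.18 (SE), with an unadjusted p of 0.230 and an adjusted p of 0.999 in edgeR. The sign was the same in both library numbers, at 0.16 in the single pair of 3840 and 0.29 in 4140 (differences of mean log2 CPM).

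Galnt6, an initiator often raised in carcinomas, had the widest spread of the abundant initiators: 152, 8.57 and 42.8 CPM in DP-DSCs and 173, 26.9 and 53.4 CPM in TP-DSCs. The groups overlapped, and the highest library was 20.2 times the lowest. Galnt3 and Galnt6 stand for an even and an uneven member, so the RefSeq promoter letters before their start sites are given (build GRCm38.p6, both on the minus strand). The RefSeq start of Galnt3 lies 201 bases inside the gene as GENCODE M21 draws it, so most of its window falls within that gene. The Galnt3 window is chr2:66124794-66125043 and the Galnt6 window chr15:100729377-100729626, each 250 bases, 5′ to 3′. Capitals mark GGGCGG (the GC box bound by SP and KLF factors), TATAAA or CCAAT on either strand.
Galnt3: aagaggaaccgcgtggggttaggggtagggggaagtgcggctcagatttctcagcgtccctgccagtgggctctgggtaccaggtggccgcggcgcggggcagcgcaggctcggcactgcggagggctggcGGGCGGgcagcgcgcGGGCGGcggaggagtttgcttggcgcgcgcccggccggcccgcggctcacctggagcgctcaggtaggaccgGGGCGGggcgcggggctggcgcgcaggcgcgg
Galnt6: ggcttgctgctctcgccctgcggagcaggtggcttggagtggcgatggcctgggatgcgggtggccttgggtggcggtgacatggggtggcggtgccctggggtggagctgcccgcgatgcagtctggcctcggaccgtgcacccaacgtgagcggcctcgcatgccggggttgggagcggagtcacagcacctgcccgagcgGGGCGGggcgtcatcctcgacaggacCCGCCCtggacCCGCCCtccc
Each window held 3 GC boxes and neither a TATAAA nor a CCAAT, so in these letters the even and the uneven gene carried the same 3 counts. GC content was 76.8% for Galnt3 and 72.8% for Galnt6, and the ratio of observed to expected CpG was 0.989 and 0.676.

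Galnt7, which adds GalNAc to peptides that already carry one, averaged 109 ± 24.5 CPM in DP-DSCs against 130 ± 34.5 CPM in TP-DSCs. Galnt2, another broad initiator, averaged 96.0 ± 2.26 and 75.9 ± 19.8 CPM in the same order, a log2 fold change of -0.36 ± 0.22 (SE) with an unadjusted p of 0.151 and an adjusted p of 0.999 in edgeR. TP-DSCs replicates 1 and 2 lay below the DP-DSC range of 93.4 to 97.6 CPM, and replicate 3, at 98.3 CPM, lay above it. Galnt11 averaged 33.0 ± 4.69 and 18.4 ± 12.6 CPM, a log2 fold change of -0.88 ± 0.51, and Galnt10 averaged 28.5 ± 18.7 and 9.65 ± 9.74 CPM, a log2 fold change of -1.61 ± 1.55 (SE). Neither passed, with adjusted p of 0.999 in edgeR for both. Galnt10 had no reads in TP-DSCs replicate 1, and Galnt12, at 20.1 ± 20.9 and 16.1 ± 17.5 CPM, had none in TP-DSCs replicate 3. At their level, a DP-DSC mean of 20 to 50 CPM, 2.45% of all 3184 genes lacked reads in at least 1 TP-DSC library, as did 2 of the 10 members there, these 2. Below 1 CPM, Galnt18 and Galnt16 had reads in DP-DSCs alone, at most 22 in a library, and Galnt5, Galnt9, Galnt13, Galnt14 and Galnt15 had none.

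The core 1 pair was present in all libraries. C1galt1, the core 1 galactosyltransferase, stood at 58.0, 45.0 and 63.5 CPM in DP-DSCs and at 68.3, 55.9 and 76.3 CPM in TP-DSCs, with overlapping groups. The log2 fold change was 0.25 ± 0.26 (SE; edgeR adjusted p = 0.999), and the approximate 95% interval ran from 0.780-fold to 1.80-fold. Its chaperone gene C1galt1c1 stood at 30.9, 32.4 and 36.0 CPM in DP-DSCs and at 10.6, 37.3 and 47.3 CPM in TP-DSCs. TP-DSCs replicate 1 was the low library. Per kilobase of transcript, C1galt1c1 made up 69.1 to 75.2% of the pair's summed level in 5 libraries and 39.5% in TP-DSCs replicate 1.

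The branching enzymes were led by Gcnt3, the mucin-type enzyme that makes both core 2 and core 4 branches in the gut. It stood at 229, 84.4 and 107 CPM in DP-DSCs and at 196, 158 and 89.2 CPM in TP-DSCs, with overlapping groups. Per kilobase it held 40.1 to 64.8% of the class in every library, ahead of Gcnt2, Gcnt1 and Gcnt4. Gcnt2, which makes the I-antigen branch, stood at 45.6, 62.9 and 79.8 CPM in DP-DSCs and at 43.0, 66.2 and 47.8 CPM in TP-DSCs; its log2 fold change was -0.28 ± 0.28 (SE; edgeR adjusted p = 0.999). Gcnt1, the leukocyte-type core 2 enzyme, averaged 55.2 ± 33.6 CPM in DP-DSCs against 40.1 ± 2.97 CPM in TP-DSCs, and Gcnt4 23.9 ± 3.01 and 23.7 ± 10.9 CPM. The spread of Gcnt1 in DP-DSCs came from 18.5 CPM in replicate 2 against 84.4 and 62.6 CPM in the others. Gcnt7 had no reads.

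Of 9 extension enzymes 3 reached 1 CPM. B3gnt3, which extends core 1, had the highest per-length level of all members with a length, at 54.9 RPKM over the 6 libraries (range 45.9 to 67.2), overlapping the range of Galnt1. It stood at 205, 140 and 166 CPM in DP-DSCs and at 205, 141 and 149 CPM in TP-DSCs, so replicate 1 was the highest in both groups. The log2 fold change was -0.06 ± 0.27 (SE; edgeR adjusted p = 0.999). B3gnt2, the main poly-N-acetyllactosamine enzyme, stood at 36.7, 47.4 and 34.7 CPM in DP-DSCs and at 35.9, 36.2 and 57.8 CPM in TP-DSCs. The row named B3gnt1 averaged 24.1 ± 0.501 and 29.7 ± 15.7 CPM. RefSeq lists that symbol as an older name of both B3gnt2 and B4gat1, so it was given no length. B3gnt2 has a row of its own, and the B3gnt1 row was counted as an extension enzyme by its symbol alone. B3gnt6, the core 3 enzyme of normal gut epithelium, had 7 reads in DP-DSCs replicate 1 and none elsewhere. B3gnt4, B3gnt5, B3gnt7 and B3gnt9 had at most 21 reads in a library, none of them in TP-DSCs, and B3gnt8 had none.

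Among the 6 enzymes that add sialic acid in the α2,3 linkage to galactose, St3gal4, which caps N-acetyllactosamine ends, was first. It stood at 101, 84.0 and 86.4 CPM in DP-DSCs and at 69.4, 115 and 52.5 CPM in TP-DSCs, and per kilobase it held 55.1 to 85.3% of the class. St3gal2, which acts on core 1 and gangliosides, was the least even member with reads in all libraries: 1.78, 35.4 and 44.3 CPM in DP-DSCs and 10.5, 7.17 and 56.6 CPM in TP-DSCs. Its highest library was 31.8 times its lowest, and the groups overlapped. St3gal6 averaged 15.2 ± 7.0 CPM in DP-DSCs against 14.0 ± 11.2 CPM in TP-DSCs, and St3gal3 16.3 ± 9.71 and 10.7 ± 5.95 CPM. St3gal1, the other core 1 sialyltransferase, stood at 0.973 CPM on average, just under 1 CPM, from 171 reads in DP-DSCs replicate 1 and 16 in replicate 3.

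St3gal5, which makes the ganglioside GM3, was the only member of at least 1 CPM with every TP-DSC library below every DP-DSC library. It stood at 6.93, 15.8 and 17.9 CPM in DP-DSCs and at 0, 6.70 and 0 CPM in TP-DSCs. The highest TP-DSC library and the lowest DP-DSC library were 6.70 and 6.93 CPM, so the gap was narrow. The fitted log2 fold change of -2.66 ± 2.21 (SE) did not pass, with an unadjusted p of 0.267 and an adjusted p of 0.999 in edgeR. Without reads in replicates 1 and 3, 3 counts allow up to 0.120 and 0.0966 CPM there; such floors cover counting error only, since reads without molecular identifiers are not independent molecules. Of the 1601 genes with a DP-DSC mean of 10 to 20 CPM, 19.9% had no reads in at least 1 TP-DSC library, and 1 of the 4 members at that level did, namely St3gal5.

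The α2,6 sialyltransferases were few. St6galnac2, which adds sialic acid to the GalNAc of core 1 chains, was the only one of 6 St6galnac genes to reach 1 CPM, at 41.1, 16.1 and 19.9 CPM in DP-DSCs and 36.2, 10.8 and 7.82 CPM in TP-DSCs. Replicate 1 was the highest in both groups. St6galnac1, which makes the sialyl-Tn antigen, had no reads in any library, like St6galnac3 and St6galnac5. In the largest library 3 counts amount to 0.0918 CPM. St6gal1, the enzyme of α2,6-sialylated N-linked chains, stood at 0.890, 11.3 and 11.4 CPM in DP-DSCs and at 7.13, 6.46 and 12.0 CPM in TP-DSCs; St6gal2 had no reads.

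St6galnac6, named here for its p although it stands below 1 CPM, had 22, 63 and 11 reads in DP-DSCs replicates 1, 2 and 3 (0.675, 1.93 and 0.407 CPM) and none in TP-DSCs. Its edgeR p was 0.00327 unadjusted and 0.124 adjusted, and 0.728 adjusted in DESeq2. It passed the filter through its DP-DSC reads alone. All 11 members with reads but a mean under 1 CPM had reads only in DP-DSCs. Of all 3445 genes with reads and a mean under 1 CPM, 89.5% had reads only in DP-DSCs and 2.26% only in TP-DSCs. Of the 603 genes with a DP-DSC mean of 1 to 2 CPM, 72.8, 78.6 and 76.0% lacked reads in TP-DSCs replicates 1, 2 and 3, against 2.32, 13.4 and 1.49% in DP-DSCs replicates 1, 2 and 3. The bins were set by the DP-DSC mean, so reads in DP-DSCs were in part required of these genes. Fewer transcripts per cell and fewer captured molecules in the TP-DSC libraries cannot be told apart here, nor can fewer cells of a type and less RNA per cell in any bulk sample.

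**Figure D2:**
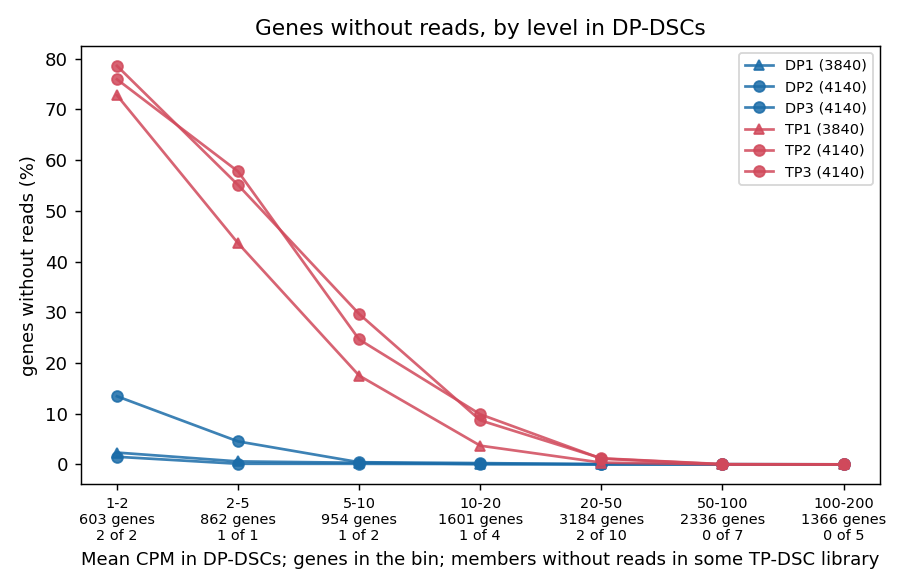
Share of all genes without reads in each library (vertical axis, percent) by their mean CPM in DP-DSCs (horizontal axis, with the number of genes and, below it, the members without reads in some TP-DSC library of all members in that bin). The 3 TP-DSC lines (red) start at 72.8 to 78.6% for genes of 1 to 2 CPM and fall to 0% from 100 CPM, where none of the 5 members lacked reads; the DP-DSC lines (blue) stay at or below 13.4%.

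Fucosylation was led by Fut8, the core fucosyltransferase of N-linked chains, and Fut2, the secretor enzyme that makes H antigen on gut mucins. Per kilobase, Fut8 held 48.0 to 63.2% and Fut2 24.2 to 40.0% of the class's summed level in the 6 libraries. The 5 members whose per-length level moved by over 1.5 times with the union of exons as length include both. Fut8 stood at 219, 117 and 107 CPM in DP-DSCs and at 224, 116 and 83.0 CPM in TP-DSCs. The library order followed the number rather than the group, with both 3840 libraries about equal and above all others. The Fut8 promoter is given as a contrast to the GC-box windows above, from RefSeq at chr12:77237854-77238103 of GRCm38.p6, plus strand, with the same motifs in capitals.
Fut8: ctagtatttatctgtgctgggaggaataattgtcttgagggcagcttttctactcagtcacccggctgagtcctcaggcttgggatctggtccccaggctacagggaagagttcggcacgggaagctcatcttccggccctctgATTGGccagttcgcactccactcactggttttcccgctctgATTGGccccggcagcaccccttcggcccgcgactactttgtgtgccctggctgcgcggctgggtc
It held 2 CCAAT matches, both read on the other strand as ATTGG, with no GC box and no TATAAA, and a GC content of 59.2%. Over the 36 members with a promoter entry, 66.7% held a GC box, 2.78% a TATAAA and 27.8% a CCAAT within 250 bases before the start, against 32.7, 12.4 and 33.8% of all 32851 promoters. Each member was counted by the single entry nearest its annotated start, whereas all entries of every gene were counted in the background. The 2 sets of shares are therefore not like for like. By level, a GC box was present in 12 of 20 members of at least 1 CPM and in 8 of 10 members without reads. A match is a description of letters and not of binding.

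Fut2 stood at 150, 39.5 and 76.7 CPM in DP-DSCs and at 101, 67.8 and 39.3 CPM in TP-DSCs, with a log2 fold change of -0.37 ± 0.57 (SE; edgeR adjusted p = 0.999). Fut1, its neighbour on chromosome 7 and the other H-antigen enzyme, was far lower, at 7.76, 8.97 and 8.03 CPM in DP-DSCs and 16.4, 0 and 6.63 CPM in TP-DSCs. Per kilobase Fut1 made up 0 to 6.30% of the class, below Fut2 in every library. Fut2 lies at 45648591 to 45666394 and Fut1 at 45617289 to 45621059 of that chromosome (GENCODE M21, GRCm38). Fut9, which makes the Lewis x structure, averaged 30.0 ± 19.2 CPM in DP-DSCs against 39.6 ± 23.7 CPM in TP-DSCs. Fut11 averaged 10.6 ± 3.01 and 5.87 ± 4.32 CPM, and Fut4, the other Lewis x enzyme, 2.26 ± 1.05 and 0.922 ± 1.60 CPM, with TP-DSCs replicates 2 and 3 at 0 reads. Fut7, the sialyl Lewis x enzyme of leukocytes, and Fut4-ps1 had no reads, and Fut10 had 5 reads in DP-DSCs replicate 1.

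More of these enzymes divided by library number than by group, in a comparison added after the values were seen. The same held for all genes, with 1109 at an unadjusted edgeR p under 0.05 by number and 728 by group. In an edgeR fit with number and group as terms, 9 of the 32 members were higher in 3840 at an unadjusted p under 0.05, against 5.74% of all tested genes, and 1 was lower, against 3.56%. None passed after adjustment, as for all 11925 genes (0.0%), while DESeq2 called 11 of the 32 members and 9.87% of all tested genes. The 9 higher members were Galnt4, Galnt6, Galnt7, Gcnt3, B3gnt3, St6galnac2, Fut8, Fut2 and Fut9, and the lower one was St3gal3. The count depends on single libraries. It was 10 in both directions, where all genes gave 1109. Without DP-DSCs replicate 1 it was 6, where all genes gave 1468, and without TP-DSCs replicate 1 it was 5, where all genes gave 415. Galnt4 had the smallest p, with means of 333 CPM over the 2 libraries of 3840 and 147 CPM over the 4 of 4140, a log2 fold change of 1.32 ± 0.18 (SE; unadjusted p = 0.000275, adjusted p = 0.137 in edgeR). Fut8 followed with 221 and 106 CPM, a log2 fold change of 1.21 ± 0.19 (adjusted p = 0.163 in edgeR). Galnt6 had the largest change of the 9, from 32.9 CPM in 4140 to 162 CPM in 3840, a log2 fold change of 2.46 ± 0.61 (adjusted p = 0.321 in edgeR). St3gal3 went the other way, at 4.78 CPM in 3840 and 17.9 CPM in 4140, a log2 fold change of -1.76 ± 0.71 (SE; adjusted p = 0.525 in edgeR).

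Both libraries of 3840 lay above all 4 of 4140 for 10 members, or 31.2% of the 32, against 9.95% of all tested genes, and below them for 4 members, or 12.5%, against 13.5%. By class, the summed level of fucosyltransferases was 443 and 416 CPM in the 3840 libraries of DP-DSCs and TP-DSCs and 153 to 230 CPM in the 4140 libraries. Initiating enzymes summed to 1224 and 1089 CPM in 3840 and 725 to 812 CPM in 4140, and branching enzymes to 381 and 310 against 188 to 280 CPM. Extension enzymes, at 267 and 280 against 189 to 246 CPM, kept the order. So did the St6galnac class, at 42.6 and 36.2 against 7.82 to 20.6 CPM. The α2,3 sialyltransferases showed no such order, at 144 and 91.2 CPM in 3840 and 131 to 179 CPM in 4140. Nor did the core 1 pair, at 88.9 and 78.8 against 77.4 to 124 CPM. The St6gal class had 0.890 and 7.13 against 6.46 to 12.0 CPM, without that order either. Within branching, Gcnt3 followed the order and Gcnt2 ran the other way, at 45.6 and 43.0 against 47.8 to 79.8 CPM. The summed level of mucous cell markers moved with the number as well. The 8 markers summed to 524 and 586 CPM in the 3840 libraries and to 24.4, 48.8, 192 and 29.5 CPM in DP-DSCs replicates 2 and 3 and TP-DSCs replicates 2 and 3. Not every marker followed. Tff3 averaged 1.67 CPM over the libraries of 3840 and 2.91 CPM over those of 4140, and Muc5ac 0 and 0.252 CPM. Muc2 was about equal, at 2.16 and 2.01 CPM, and the remaining markers averaged higher in 3840. Agr2, a secretory-cell disulfide isomerase, stood at 226 and 256 CPM in 3840 and at 10.7 to 53.7 CPM in 4140. Their part in the enzyme levels was not tested, and each group holds 1 library of 3840. What the number marks is not given, so a run, a culture and a time of sorting cannot be told apart.

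**Figure D3:**
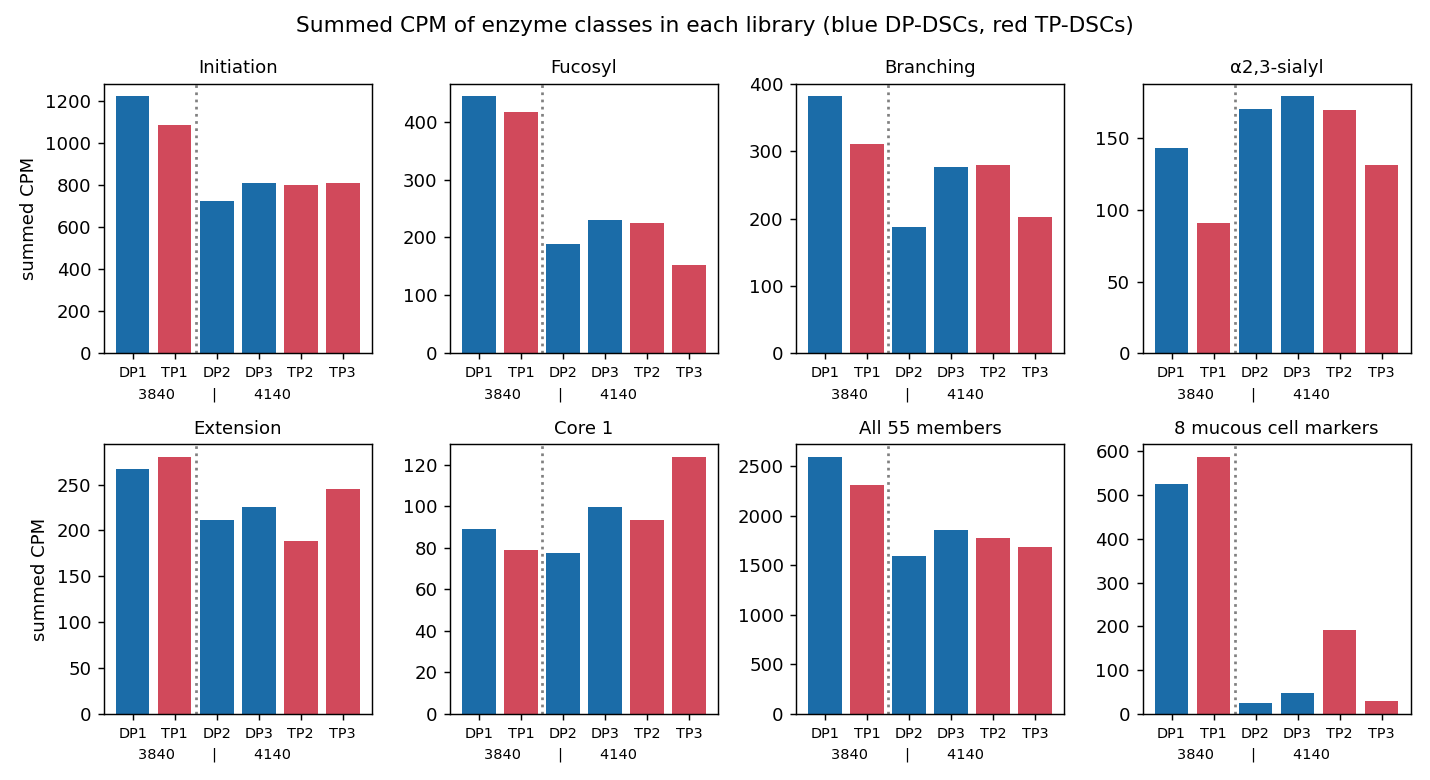
Summed CPM of 6 enzyme classes, of all 55 members and of 8 mucous cell markers in each library (bars from 0; blue DP-DSCs, red TP-DSCs), with the 2 libraries of number 3840 left of the dotted line and the 4 of 4140 right of it. Fucosyltransferases reach 443 and 416 CPM on the left and 153 to 230 CPM on the right, and the marker bars fall from 524 and 586 CPM to at most 192 CPM.

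**Figure D4:**
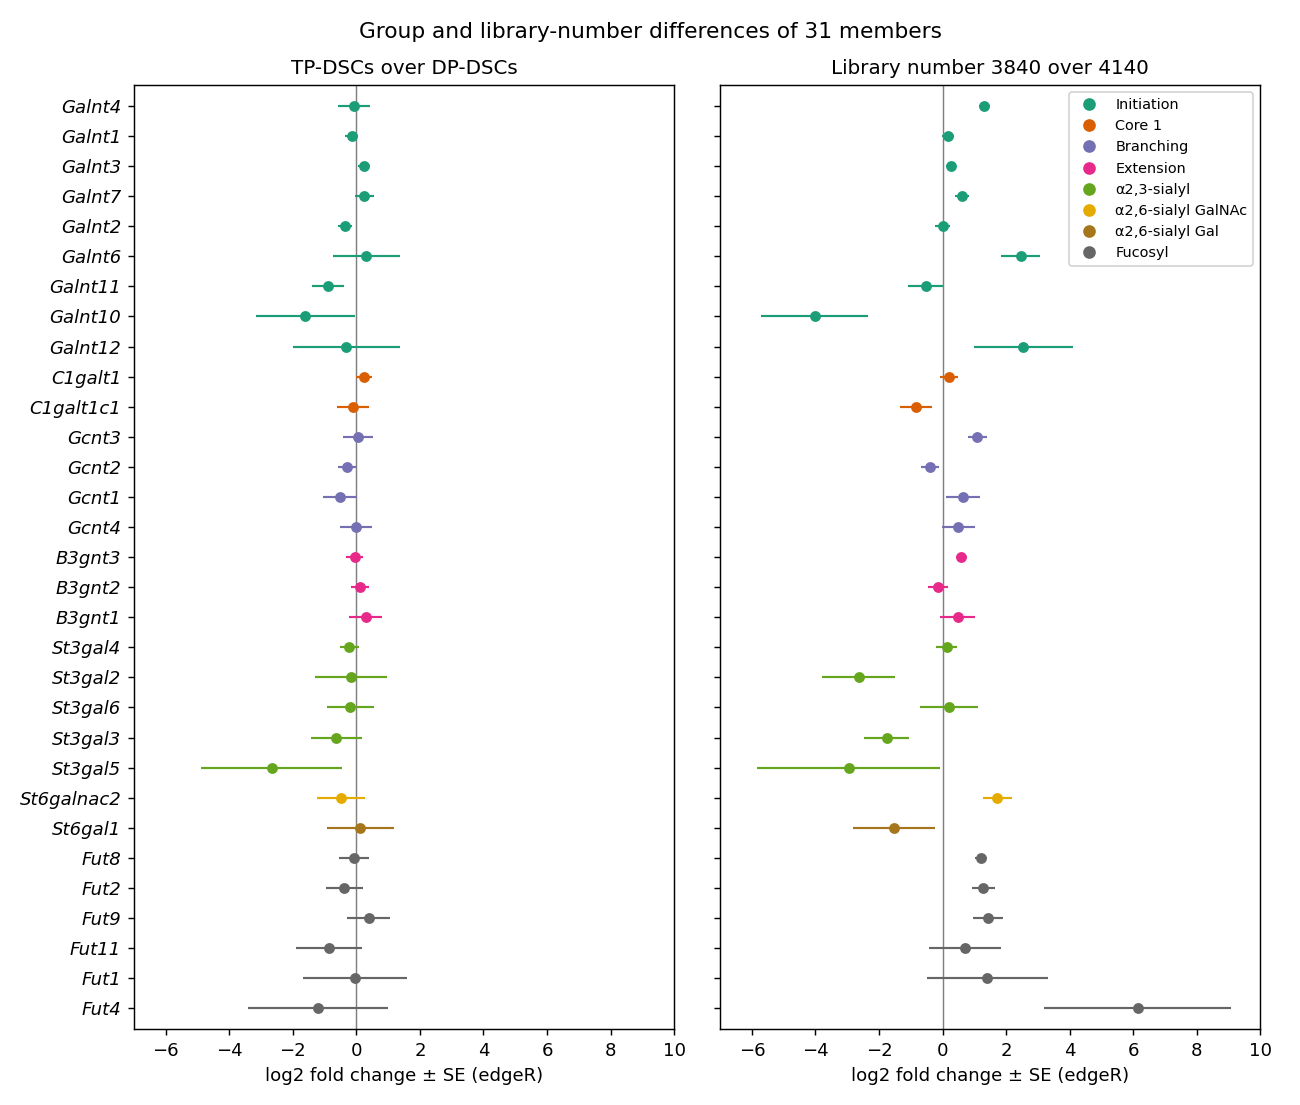
Log2 fold change with its standard error from edgeR for the 31 members of at least 1 CPM, TP-DSCs over DP-DSCs on the left and library number 3840 over 4140 on the right, coloured by class. On the left most points lie near 0, with St3gal5 furthest at -2.66; on the right Galnt4, Galnt6, Gcnt3, Fut8, Fut2 and Fut9 lie between 1.10 and 2.46, while Fut4 and Galnt10, with libraries at 0 reads, lie furthest out with wide errors.

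The other genes of the route were read from lists, of which 48 genes were tested. The lists covered sugar-donor, mucin, galactose, sulfation and removal genes, and polysialyl and ganglioside sialyltransferases such as St8sia6. None was called in edgeR; 0 were higher and 2 lower in TP-DSCs at an unadjusted p under 0.05, where all genes gave 1.43% and 4.67%. Their median log2 fold change was -0.07. The 2 were Nanp, the phosphatase of sialic acid synthesis, at 2.12, 4.77 and 1.29 CPM in DP-DSCs and 0.0401, 0 and 0 CPM in TP-DSCs, and St8sia6, at 1.14, 1.07 and 4.74 CPM in DP-DSCs against 0 in TP-DSCs. Both passed the filter on low counts through their DP-DSC reads alone. Of all genes with a DP-DSC mean of 2 to 5 CPM, as both had, 43.6, 55.1 and 57.8% lacked reads in TP-DSCs replicates 1, 2 and 3. The other steps of sialic acid supply were well covered. Cmas, which activates sialic acid, averaged 116 ± 2.91 CPM in DP-DSCs against 110 ± 21.5 CPM in TP-DSCs, Nans 98.1 ± 13.7 and 82.8 ± 34.8 CPM, and the rate-limiting Gne 61.3 ± 11.2 and 50.4 ± 7.73 CPM. For fucose, the transporter Slc35c1 averaged 105 ± 22.1 and 124 ± 22.1 CPM and the GDP-fucose synthase Tsta3 88.6 ± 9.95 and 82.2 ± 24.4 CPM. Gfpt1, which opens the route to UDP-GlcNAc, averaged 316 ± 116 and 339 ± 88.6 CPM. B4galt6, mainly a glycolipid galactosyltransferase, averaged 141 ± 9.09 and 182 ± 39.8 CPM, and the sialidase Neu1 216 ± 52.6 and 189 ± 15.1 CPM.

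Of the mucin core protein genes, 4 were tested, and 3 (Muc1, Muc4 and Muc6) were higher in 3840 at an unadjusted p under 0.05, against 5.74% of all tested genes; none passed after adjustment in edgeR. Muc1, a membrane mucin, stood at 433, 241 and 222 CPM in DP-DSCs and at 435, 374 and 211 CPM in TP-DSCs. Muc6, the gland mucin of the stomach, stood at 70.3, 1.04 and 11.5 CPM in DP-DSCs and at 146, 77.4 and 11.9 CPM in TP-DSCs, with a log2 fold change of 1.49 ± 1.37 (SE; edgeR adjusted p = 0.999). Muc4 stood at 76.3 and 82.9 CPM in the 3840 libraries and at 0.582 to 11.1 CPM in 4140. For Muc1 and Muc4 both 3840 libraries lay above all of 4140, whereas for Muc6 TP-DSCs replicate 2 of 4140 lay above DP-DSCs replicate 1 of 3840. Muc2, the intestinal goblet cell mucin, showed no such order, at 4.33, 0 and 1.11 CPM in DP-DSCs and 0, 0 and 6.92 CPM in TP-DSCs.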

How the data were processed

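Libraries of 3 DP-DSC and 3 TP-DSC samples were made with a stranded kit from polyA-selected RNA, per the labels' protocols. The authors deposited 1 raw read count per gene symbol and library. STAR 2.7.3a, Partek and DESeq2 3.5 with build mm10 are named in the submitters' processing notes, without roles; the strand setting is not given in the sources used here. Unassigned reads (14.1 to 15.4% of all in DP-DSC libraries and 16.2 to 20.3% in TP-DSC libraries) and ambiguous reads (1.09 to 1.86%) were left out. CPM were computed over gene reads.

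All genes were fitted in R 4.3.3 with edgeR 4.0.16 (filterByExpr with a minimum count of 10 and a total of 15, TMM, quasi-likelihood F test, group as the only term, Benjamini-Hochberg at 0.05). Fold changes are TP-DSCs over DP-DSCs. Their standard error is the log2 fold change over the square root of F, and intervals are approximate. Within-number differences use log2 CPM with a prior count of 2. RPKM use the longest protein-coding transcript of GENCODE M21 (GRCm38); 54 of the 55 symbols matched. The fit was tested on simulated data.

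Every member of 1 CPM or more is named. Values per library are given for the leading 2 of each class and for members with separated groups; the others shown per library, St6galnac6 and the genes named by library number were chosen after values were seen. Members and lists were chosen with earlier results of these data known. Alternatives were other scalings, DESeq2 1.42.0, limma-voom (limma 3.58.1), other filters, the library number as a block, 4140 alone and leaving out each library. No 2 libraries of a group were alike within counting noise. Replicate numbers follow deposit order; only the library number, shared across the groups, was used as a block.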

Additional observations from a re-analysis of the deposited data

How the results depend on the processing

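No member was called between TP-DSCs and DP-DSCs under any of the 14 alternatives, nor was a listed pathway gene. The count of all genes called rose from 0 to 93 with DESeq2 and stayed at 0 otherwise, including with the library number as a replicate block. The 7 fold changes followed (Galnt2, Galnt3, Galnt10, Galnt11, Gcnt2, St3gal5 and St6galnac6) kept their sign throughout; that of Galnt10 ranged from -3.72 to -1.04 and that of St3gal5 from -11.64 to -2.07, both with TP-DSC libraries at 0 reads. That of Galnt11 ranged from -1.55 (without TP-DSCs replicate 3) to -0.64, that of Gcnt2 from -0.47 to -0.07 (without DP-DSCs replicate 3), and that of St6galnac6 from -8.16 to -5.36 (limma-voom).

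Between the library numbers, all genes called went from 0 to 1177 with DESeq2, 55 with limma-voom and 56 without the filter, and from 0 to 7 when 1 library was left out (7 without DP-DSCs replicate 3). Members called went from 0 to 11, 1 and 1 in the same order; the 1 was Galnt4 each time. The cause was not tested. Members at an unadjusted p under 0.05 numbered 10, and 5 to 12 when 1 library was left out, with 6 without DP-DSCs replicate 1 (1468 of all genes, against 1109 with all libraries) and 5 without TP-DSCs replicate 1 (415 of all genes), which leave 1 library of 3840 that is assumed to vary like the others. All 10 fold changes kept their sign. The per-length level moved by over 1.5 times with the union of exons for 5 of 30 members (Galnt11, Gcnt2, St6galnac2, Fut8 and Fut2). Levels near 1 CPM are limited by reads lacking in TP-DSC libraries, and the lack reached higher levels too. At least 1 TP-DSC library had no reads for 53.1% of genes with a DP-DSC mean of 5 to 10 CPM. At 10 to 20 CPM the share was 19.9%.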

Other observations

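By library number, in a comparison made after values were seen, 3 of 13 UDP-sugar genes tested were higher in 3840 at an unadjusted p under 0.05 (5.74% of all tested genes), and 0 of 5 sialic acid donor genes and 0 of 5 fucose donor genes were. Slc35a3, the Golgi transporter of UDP-GlcNAc, stood at 164 and 150 CPM in the 3840 libraries of DP-DSCs and TP-DSCs and at 52.0 to 85 CPM in the 4 libraries of 4140, a log2 fold change of 1.29 (unadjusted p = 0.000714 in edgeR). Gfpt1 stood at 447 and 429 CPM against 227 to 335 CPM, and Ugp2, which makes UDP-glucose, at 131 and 177 against 82.6 to 120 CPM. Papss2, which makes the sulfate donor, stood at 78.9 and 69.1 CPM against 7.47 to 49.0 CPM. None passed after adjustment in edgeR. Of the 48 tested pathway genes, 35 were above 0 in 3840, 9 of them at an unadjusted p under 0.05, and 0 were lower at that p; over all tested genes 5.74% were higher and 3.56% lower. The 9 include the mucins Muc1, Muc4 and Muc6 and the removal genes Neu1 and Siae. Among all tested genes 5998 were above and 5927 below 0.

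Tff2, the trefoil peptide of gastric mucous cells, was at 127 and 110 CPM in the 3840 libraries, at 0.979 CPM in DP-DSCs replicate 2 and at 0 in the other 3.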
